A study of Mus musculus with 20 samples.

Results

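The retinoid genes followed here were Aldh1a1, Aldh1a2, Aldh1a3, Aldh1a7, Rbp4, Crabp2, Rarb, Stra6 and Dhrs3, 9 of the 47069 Ensembl genes in the count table of a kidney RNA-seq experiment in Alport mice. They were chosen by gene symbol with results of these data in view, and Aldh1a3 was picked on its fold change in the anti-miR-21 group compared to the Veh group. All 9 of 9 passed the filter on low counts and were tested among 17622 genes. The libraries came from 20 male mice of a 129SJ x C57Bl/6J F1 background at 15 weeks of age. Alport syndrome is an inherited kidney disease of type IV collagen, modelled by the F1-Col4a3-/- mice, which lack Col4a3 in every cell from conception. The WT group comprised 5 untreated littermates, and the other 3 groups were Col4a3-/- mice dosed from 5 weeks of age. The Veh group (n = 6) received PBS. The anti-miR-21 group (n = 6) received lademirsen, an oligonucleotide that blocks microRNA-21, subcutaneously once weekly at 50 mg/kg. The ACEi group (n = 3) received the angiotensin-converting enzyme inhibitor ramipril at 11 mg/L in drinking water together with PBS injections; the deposited library table gives its dose as 4 mg/kg. The tissue was labelled as kidney, whereas the extraction text in the labels names adipose tissue.

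Retinol travels in blood bound to retinol-binding protein and transthyretin, is taken up by cells, and is oxidised first to retinaldehyde and then to retinoic acid. Retinoic acid binds the nuclear receptors RAR and RXR, which turn on genes carrying a retinoic acid response element, and is removed by the CYP26 enzymes. In the kidney, the proximal tubule reclaims filtered retinol-binding protein through megalin and cubilin, and stromal retinoic acid directs branching of the collecting system during development.

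Count totals were close to each other, between 28474272 and 29479600 per library. Proximal tubule markers were present in every library, and Col4a3 ranged from 194 to 238 CPM in WT mice and from 27.9 to 74.9 CPM in all Col4a3-/- mice. CPM here means counts scaled to 1000000 per library, after the libraries were brought to a shared level by trimmed-mean (TMM) scaling. Scaling by library totals instead moved the median over all tested genes to a log2 fold change of 0.65 in Veh vs. WT, −0.38 in anti-miR-21 vs. Veh, −0.32 in ACEi vs. Veh and 0.26 in anti-miR-21 vs. WT, against 0.07, −0.04, −0.05 and 0.01 with TMM. All fold changes are therefore relative to a shared level that the scaling sets. The 6 comparisons share mice, so their values are set side by side and are not independent of one another. P-values measure the spread between these mice only.

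Sequences are shown for the pair of genes most alike among the 9, for the receptor gene that carries a retinoic acid response element, and for the microRNA that was blocked. Aldh1a1 and Aldh1a7 lie near each other on chromosome 19 (GRCm38, 20492715 to 20643465 on the plus strand and 20692953 to 20727562 on the minus strand). Aldh1a1 had 2 RefSeq proximal promoters and Aldh1a7 had 1. The pair with the best local alignment is shown, over its aligned stretch alone. These stretches, at chr19:20601858-20602017 (plus strand) and chr19:20727507-20727666 (minus strand), were identical at 152 of 160 bases. They ran from 110 bases before the start to 50 after it, and capitals mark the identical bases.
Aldh1a1: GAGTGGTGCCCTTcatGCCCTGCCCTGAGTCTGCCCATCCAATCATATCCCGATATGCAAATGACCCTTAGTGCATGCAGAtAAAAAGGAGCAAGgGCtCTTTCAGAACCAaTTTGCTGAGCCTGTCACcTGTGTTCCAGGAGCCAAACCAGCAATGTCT
Aldh1a7: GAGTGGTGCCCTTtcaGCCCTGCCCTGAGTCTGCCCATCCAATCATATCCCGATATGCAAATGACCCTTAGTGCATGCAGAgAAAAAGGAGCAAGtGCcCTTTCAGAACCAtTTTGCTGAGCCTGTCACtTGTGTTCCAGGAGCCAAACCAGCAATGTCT
The longest transcripts of the pair were 89.0% identical over 2043 aligned bases. Even so, 1 of 4934 windows of 100 bases across Aldh1a1, the length of a read, occurred unchanged in Aldh1a7, so few whole reads could be assigned to the wrong gene of the pair.

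The RefSeq promoter of Rarb (chr14:16575427-16575726, minus strand, GRCm38.p6) held a direct repeat of the hexamer that retinoic acid receptors bind, shown in capitals, beginning 53 bases before the start.
Rarb: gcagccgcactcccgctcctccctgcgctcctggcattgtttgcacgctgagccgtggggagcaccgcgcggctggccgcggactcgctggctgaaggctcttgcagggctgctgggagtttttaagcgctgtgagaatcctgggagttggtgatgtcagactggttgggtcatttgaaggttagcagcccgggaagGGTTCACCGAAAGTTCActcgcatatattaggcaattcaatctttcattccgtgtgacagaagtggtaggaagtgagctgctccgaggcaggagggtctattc
The search covered the hexamers AGGTCA as well as AGTTCA and the variants with GGGTCA or with GGTTCA, on both strands, as direct repeats with a gap of 1, 2 or 5 bases. Of 32851 RefSeq promoters of this length, 32 held the repeat with a gap of 5 bases (0.0974%), 88 the repeat with a gap of 2 (0.268%) and 73 the repeat with a gap of 1 (0.222%), and single hexamers were present in 43.7%. RefSeq promoters were available for 7 of the 9 genes, and among these, only the window of Rarb held such a repeat.

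MicroRNA-21 (mmu-miR-21a-5p, chr11:86584120-86584141, minus strand) is shown with its seed, bases 2 to 8, in capitals.
miR-21a-5p: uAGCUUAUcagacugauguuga
The site that pairs with this seed, ATAAGCT, was present in the longest annotated 3′ UTR of 1510 of 21020 genes (7.18%) and in 0 of the 9 retinoid genes, whose 3′ UTRs measured 243 to 1799 bases.

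In Veh vs. WT, 5 of the 9 genes were called at an edgeR adjusted p below 0.05, against 73.0% of all genes tested. Stra6, Aldh1a2, Aldh1a1 and Rarb rose and Dhrs3 fell, and the median log2 fold change of the 9 was 0.75 (all genes, 0.07). In ACEi vs. Veh, 5 of 9 were called, against 40.1% of all genes. These were Aldh1a1, Aldh1a2, Aldh1a3, Crabp2 and Rarb, all lower in ACEi mice, and the median of the 9 was −0.61 (all genes, −0.05). Aldh1a3 was selected partly on its Veh values, and Crabp2 passed the filter through high Veh and WT mice. Their calls here are a description. Without the Veh mice A1 and A4 and the WT mouse A17, whose urothelium markers stood high, 1 of the 9 (Aldh1a1) was called in ACEi vs. Veh, and the same single gene was called without the 4 mice whose adipocyte markers summed to over 100 CPM (Veh A1, A4 and A9 and anti-miR-21 A12, the adipocyte-rich mice below). Aldh1a3 was selected from anti-miR-21 vs. Veh, so calls of the 9 genes in that comparison are a description and no test. There, 7 of 9 were called, against 59.2% of all genes, and the median was −0.81 (all genes, −0.04). Aldh1a1, Aldh1a2, Aldh1a3, Crabp2 and Rarb were lower and Aldh1a7 and Dhrs3 higher; without the adipocyte-rich mice 3 of 9 were called. Compared to WT, 5 of 9 were called under anti-miR-21 (all genes, 43.7%) and 4 of 9 under ACEi (all genes, 47.7%). The 5 under anti-miR-21 included Aldh1a3, whose anti-miR-21 values took part in its selection, so its call is a description. Aldh1a3 was not called there with upper-quartile scaling, without a filter or with flow cell as a term. On the larger of the 2 flow cells alone (3 WT and 4 Veh mice), the Veh vs. WT log2 fold changes were 5.35 for Stra6, 4.35 for Aldh1a2, 2.02 for Aldh1a1 and 0.61 for Rarb, all called, and −0.04 for Dhrs3, which was not. On the other (2 WT, 2 Veh, 2 ACEi and 1 anti-miR-21 mice) they were 5.98, 4.98, 1.56, 1.02 and −0.46 in the same order, all called, while in ACEi vs. Veh 1 of the 9 (Aldh1a1) was called there. Anti-miR-21 and ACEi mice differed from each other in 1 of the 9, Dhrs3, where 0.584% of all genes were called.

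**Figure D1:**
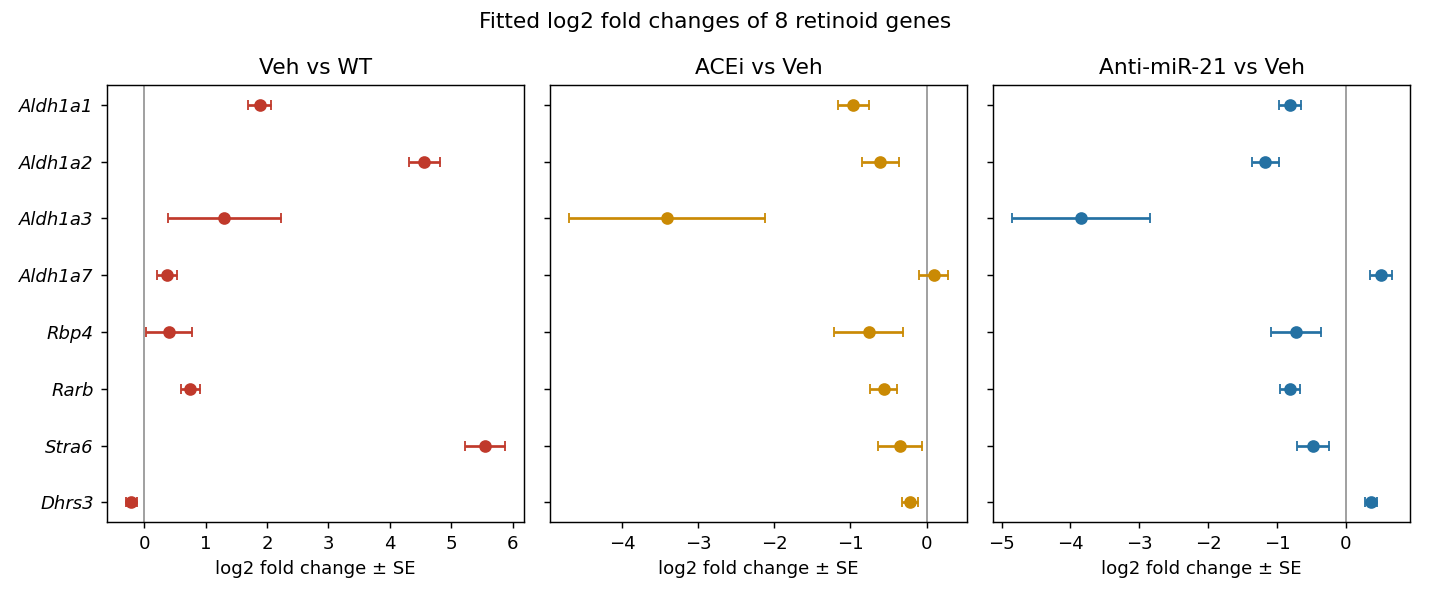
Log2 fold changes (x axis, log2 units, a different range in each panel) of 8 retinoid genes in Veh vs. WT, ACEi vs. Veh and anti-miR-21 vs. Veh, with bars of 1 standard error. Crabp2 is left out for its low counts. Stra6 and Aldh1a2 lie furthest from 0 in Veh vs. WT, at 5.54 and 4.56, and Aldh1a3 has the widest error bars.

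Stra6, which encodes the cell-surface receptor that passes retinol from retinol-binding protein into cells, showed the largest fold change of the 9 genes. Stra6 (chromosome 9, 58063788 to 58153996, plus strand) measured 1.51, 3.53, 2.20, 1.27 and 0.755 CPM in the 5 WT mice. In Veh mice it ranged from 51.8 CPM (A16) to 115 CPM (A1), with a median of 86.9 CPM. No Veh mouse came near the WT range. The gene rose 46.6-fold in Veh vs. WT (log2 fold change 5.54 ± 0.33 standard error; edgeR adjusted p = 1.74e-11).

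Neither treatment brought Stra6 near WT. Anti-miR-21 mice ranged from 41.1 to 94.2 CPM, and the 3 ACEi mice measured 82.0, 58.0 and 64.6 CPM. Every treated mouse lay above every WT mouse. Compared to WT, Stra6 stayed 33.6-fold higher under anti-miR-21 (5.07 ± 0.32; edgeR adjusted p = 4.59e-10) and 36.7-fold higher under ACEi (5.20 ± 0.34; edgeR adjusted p = 5.01e-10). Against Veh, the log2 difference was −0.47 ± 0.23 under anti-miR-21, or −0.81 with library totals, and −0.35 ± 0.28 under ACEi (edgeR adjusted p = 0.349 for ACEi), or 0.12 on the smaller flow cell alone. The anti-miR-21 difference was called in 8 of 26 alternatives, again as a description. On a scale where the Veh mean is 0% and the WT mean 100% in log2 CPM, anti-miR-21 mice stood at 8.69% ± 8.06 (SD, n = 6) and ACEi mice at 5.65% ± 4.53 (SD, n = 3).

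Rbp4, the plasma carrier of retinol (chromosome 19, 38116629 to 38125281, minus strand), was expressed at a low level in kidney. It measured 0.490 to 3.56 CPM in WT, 1.76 to 3.76 CPM in Veh, 0.606 to 2.32 CPM in anti-miR-21 and 1.25 to 2.11 CPM in ACEi mice. All 4 groups overlapped, and no comparison of Rbp4 reached the threshold with TMM scaling (Veh vs. WT, 0.41 ± 0.38; edgeR adjusted p = 0.343). With library totals in place of TMM, Rbp4 was called higher in Veh than in WT (0.98) and lower in anti-miR-21 than in Veh mice (−1.09). It was called in 4 of 26 alternatives in Veh vs. WT, in 5 of 26 in anti-miR-21 vs. Veh and in 1 of 23 in ACEi vs. Veh.

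Crabp2, which carries retinoic acid to its receptors in the nucleus (chromosome 3, 87948666 to 87953376, plus strand), was close to the limit of detection. Its estimated counts were 1, 1, 6, 21 and 2 in WT mice. Veh mice A1, A4, A9, A16, A19 and A20 had 23, 26, 11, 2, 3 and 12 counts, and no treated mouse had more than 3. The high counts were found in 4 of the 6 Veh mice and in the WT mice A14 and A17, and the other Veh mice overlapped the treated mice. Only Veh mice A1, A4, A9 and A20 and WT mouse A17 had at least 10 counts. Crabp2 thus passed the filter through groups where it was high, and its ACEi vs. Veh call is a description and no test. That call held in 9 of 20 alternatives. It was lost without the low-count filter and with flow cell as a term in the fit. It was also lost without any of the 3 ACEi mice or Veh mice A1, A4, A9 or A20. No fold is given, since treated mice did not exceed 3 counts.

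The 3 retinaldehyde dehydrogenases, Aldh1a1, Aldh1a2 and Aldh1a3, make retinoic acid from retinaldehyde and are the step that commits retinoid to signalling. Aldh1a2 (chromosome 9, 71215789 to 71296243, plus strand), the main enzyme of the embryo, measured 5.43, 7.14, 4.52, 3.97 and 2.98 CPM in WT mice. The 6 Veh mice ranged from 96.4 to 126 CPM with a median of 115 CPM. Aldh1a2 rose 23.5-fold in Veh vs. WT (log2 fold change 4.56 ± 0.25; edgeR adjusted p = 6.81e-12), and the groups were far apart. Anti-miR-21 mice ranged from 29.7 to 77.8 CPM with a median of 44.1 CPM, and ACEi mice measured 66.7, 83.4 and 73.0 CPM. All treated mice lay below all Veh mice and above all WT mice.

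The log2 fold change of Aldh1a2 was −1.17 ± 0.19 in anti-miR-21 vs. Veh and −0.61 ± 0.24 in ACEi vs. Veh (edgeR adjusted p = 0.0499). The ACEi call sat at the threshold and was lost when any mouse of the 2 groups was left out. Compared to WT, Aldh1a2 remained raised in both treated groups, by 3.39 ± 0.24 under anti-miR-21 (edgeR adjusted p = 1.37e-09) and 3.95 ± 0.26 under ACEi (edgeR adjusted p = 5.20e-10) in log2 units. The difference between anti-miR-21 and ACEi mice did not reach the threshold (−0.56 ± 0.23; edgeR adjusted p = 0.269).

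Aldh1a1, the enzyme of adult epithelia, was less changed. WT mice measured 6.64, 8.69, 7.81, 6.99 and 7.68 CPM, Veh mice 19.5 to 37.1 CPM with a median of 26.8 CPM, anti-miR-21 mice 10.8 to 21.9 CPM and ACEi mice 12.5, 13.5 and 16.9 CPM. WT and Veh did not overlap, and both treated groups lay between them apart from anti-miR-21 mouse A8, which exceeded the lowest Veh mouse. Aldh1a1 rose 3.68-fold in Veh vs. WT (1.88 ± 0.18; edgeR adjusted p = 1.0e-08) and was lower in ACEi vs. Veh (−0.96 ± 0.21; edgeR adjusted p = 0.00107). In anti-miR-21 vs. Veh its log2 fold change was −0.81 ± 0.16, or −0.46 without the adipocyte-rich mice. It was still above WT in the anti-miR-21 group (1.07 ± 0.18; edgeR adjusted p = 8.36e-05) and the ACEi group (0.92 ± 0.21; edgeR adjusted p = 0.00125).

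**Figure D2:**
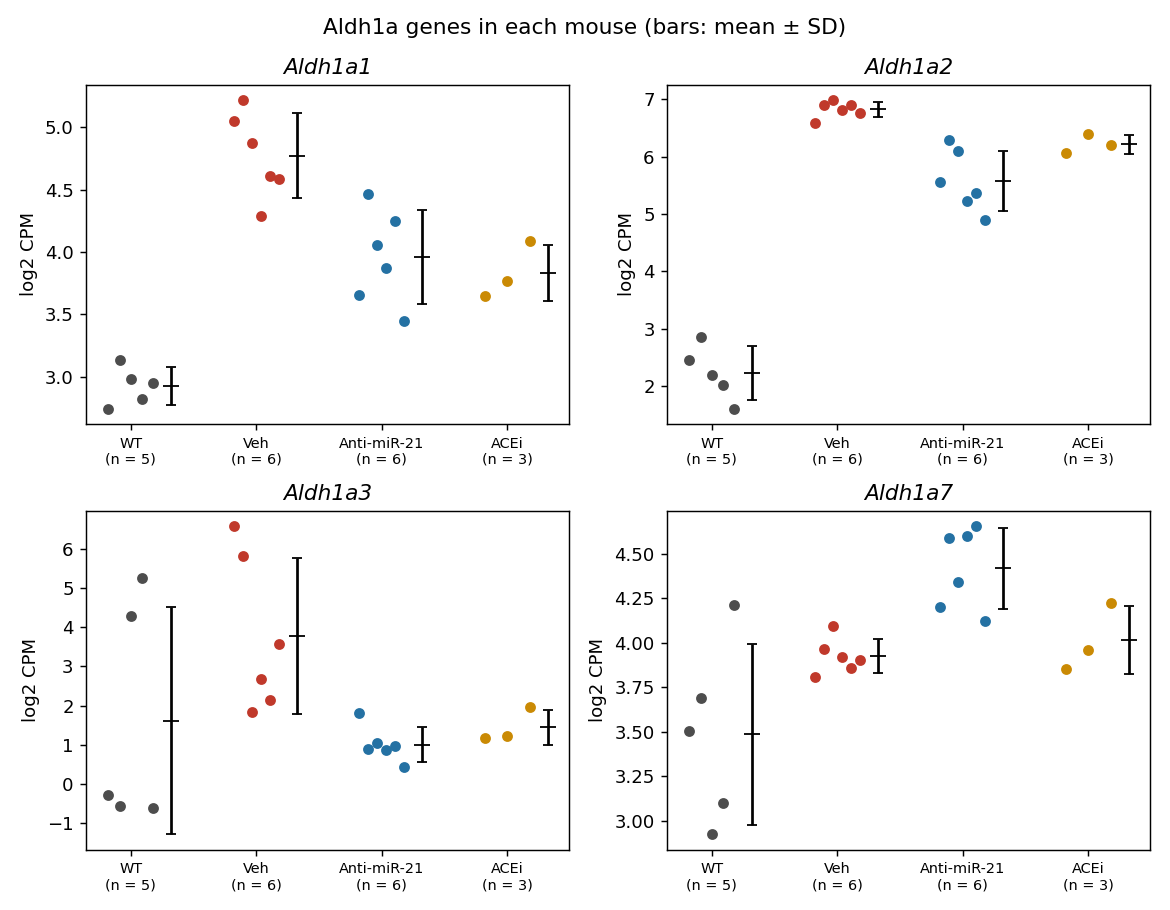
Log2 CPM of Aldh1a1, Aldh1a2, Aldh1a3 and Aldh1a7 (y axis) in each mouse (points), grouped as WT, Veh, anti-miR-21 and ACEi, with the mean and SD beside each group. Aldh1a2 separates Veh (96.4 to 126 CPM) from WT (2.98 to 7.14 CPM), whereas single WT and Veh mice spread Aldh1a3 from 0.587 to 95.0 CPM.

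Levels of different genes were compared per length, in the FPKM values deposited by the authors, which are scaled to the library total. The summed FPKM of the 3 enzymes was 7.79 ± 4.09 (SD, n = 5) in WT, 90.5 ± 16.1 (SD, n = 6) in Veh, 30.5 ± 11.5 (SD, n = 6) in anti-miR-21 and 41.8 ± 2.82 (SD, n = 3) in ACEi mice. The highest WT sum was 14.1 and the lowest Veh sum 69.4, with the treated mice between 16.8 and 47.8. The shares of the 3 enzymes are given without a test. In WT kidney Aldh1a1 supplied 47.5% ± 20.2 of the sum (SD, n = 5) and Aldh1a2 27.0% ± 13.8, while Aldh1a2 supplied 70.7% ± 13.1 in Veh (n = 6), 71.6% ± 4.87 in anti-miR-21 (n = 6) and 80.7% ± 3.05 in ACEi mice (n = 3). Aldh1a3 took 68.4% of the sum in WT mouse A17 and 32.3% in Veh mouse A1.

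**Figure D3:**
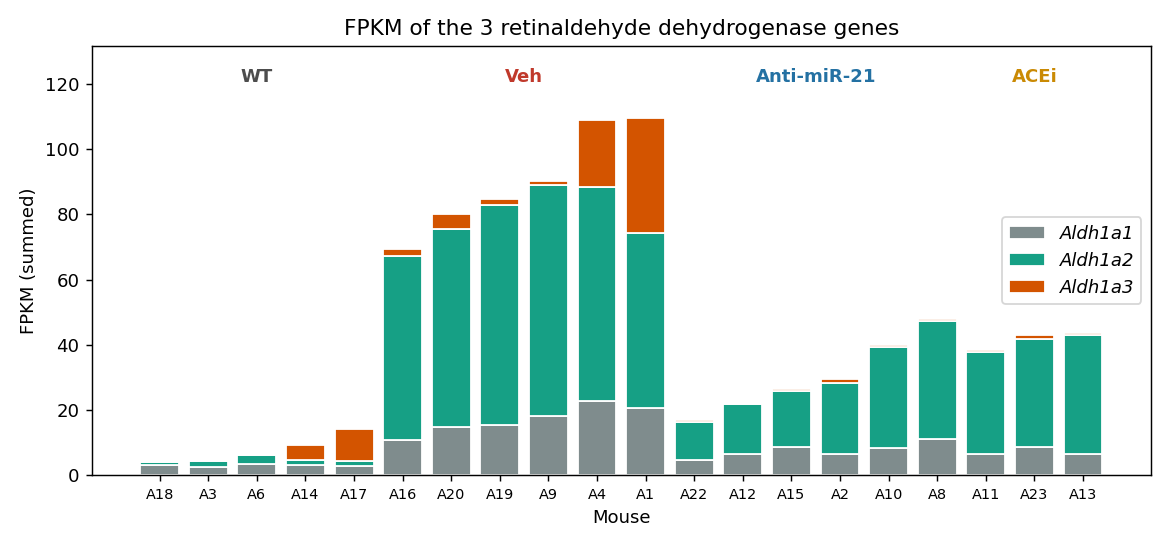
Summed FPKM of Aldh1a1, Aldh1a2 and Aldh1a3 in each of the 20 mice (y axis, FPKM, stacked bars from 0), by group and, within a group, by the sum. Aldh1a2 forms most of each bar in the Veh, anti-miR-21 and ACEi groups except in Veh mouse A1, where it holds 49.0%.

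Summed markers of several cell types moved with Aldh1a2, Stra6 and Aldh1a1, and their part in these results was not tested. Fibroblast markers (5 of 5 found) summed to 111 to 258 CPM in WT, 1504 to 1812 CPM in Veh, 429 to 822 CPM in anti-miR-21 and 805 to 915 CPM in ACEi mice. Tubule injury markers (5 of 5) summed to 23.2 to 35.4, 836 to 1352, 268 to 555 and 536 to 624 CPM in the same order. Macrophage markers (5 of 5) summed to 117 to 130, 400.0 to 488, 187 to 253 and 239 to 285 CPM, and podocyte markers (4 of 4) to 103 to 159, 222.5 to 274, 242 to 279 and 241 to 261 CPM. No marker of these 4 lists was at 0 in a whole group. In these 4 sums, as in Stra6, Aldh1a2 and Aldh1a1, the group medians were lowest in WT and highest in Veh. The podocyte sums, however, overlapped among the 3 Col4a3-/- groups. Single podocyte markers went both ways, with 2 higher and 2 lower in anti-miR-21 vs. Veh and 2 higher and 1 lower in ACEi vs. Veh. In whole kidney, fewer cells of a type and less RNA per cell cannot be told apart. Across the 20 mice, log2 CPM of Aldh1a2 and Stra6 correlated at r = 0.97 over 4 groups that differ in both genes, and at r = 0.69 after subtracting group means, a description of libraries that share scaling and tissue. Marker sums followed each gene about as closely. Aldh1a2 correlated at r = 0.98 with tubule injury and 0.97 with fibroblast sums (0.46 and 0.80 after subtracting group means). Stra6 correlated at r = 0.96 with podocyte and 0.96 with tubule injury sums (0.62 and 0.36).

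Aldh1a3, the retinaldehyde dehydrogenase of placodes and some adult epithelia (chromosome 7, 66390890 to 66427517, minus strand), was selected on its difference between anti-miR-21 and Veh, so those values are a description. WT mice A3, A6, A14, A17 and A18 measured 0.757, 0.615, 19.5, 38.1 and 0.587 CPM. Veh mice A1, A4, A9, A16, A19 and A20 measured 95.0, 55.7, 3.50, 6.29, 4.37 and 11.9 CPM. Both groups held a pair of mice far above the rest. Anti-miR-21 mice A2, A8, A10, A12, A15 and A22 measured 3.47, 1.81, 2.002, 1.76, 1.88 and 1.28 CPM, and ACEi mice A11, A13 and A23 measured 2.20, 2.25 and 3.85 CPM. All treated mice lay in a narrow band above 3 of the 5 WT mice, and the lowest Veh mouse (3.50 CPM) was just above the highest anti-miR-21 mouse (3.47 CPM).

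The log2 fold change of Aldh1a3 was −3.85 ± 0.999 in anti-miR-21 vs. Veh and −3.41 ± 1.29 in ACEi vs. Veh. Without the Veh mice A1 and A4 and the WT mouse A17, these values were −1.65 and −1.20, and without the adipocyte-rich mice A1, A4, A9 and A12 they were −1.82 and −1.41. The Veh vs. WT value of 1.30 ± 0.92 became −0.67 without the adipocyte-rich mice and −1.09 on the smaller flow cell alone, and with 1 mouse left out it ran from 0.46 to 2.46, the latter without WT mouse A17. Anti-miR-21 vs. WT gave −2.54 ± 1.01, with the groups overlapping, −1.39 without WT mouse A17 and −0.64 with log2(FPKM + 1). It was called in 8 of 25 alternatives, as a description, since the anti-miR-21 values took part in the selection. In ACEi vs. WT, Aldh1a3 did not reach the threshold (−2.11 ± 1.26; edgeR adjusted p = 0.178).

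Within the WT and Veh groups, markers of urothelium and mesothelium (urinary lining and organ surface) were highest in the same mice as Aldh1a3. Their part in the Aldh1a3 result was not tested. The summed urothelium markers (4 of 4 found, none at 0 in a whole group) were 154 CPM in Veh mouse A1, 94.3 CPM in A4, 28.4 CPM in WT mouse A17 and 14.1 CPM in A14. Their group ranges were 1.47 to 28.4 CPM in WT, 9.56 to 154 CPM in Veh, 1.17 to 6.98 CPM in anti-miR-21 and 1.499 to 6.03 CPM in ACEi mice. All 4 urothelium markers fell in both treated groups compared to Veh, and 3 rose in Veh vs. WT. Veh mice A9, A16 and A20 had urothelium sums of 15.9, 19.5 and 18.2 CPM, above WT mouse A14. Their Aldh1a3 values of 3.50, 6.29 and 11.9 CPM lay below the 19.5 CPM of A14. Of the mesothelium markers (3 of 4 found), 2 fell in each treated group compared to Veh and 1 rose in Veh vs. WT. Their sums ranged over 3.78 to 17.1, 9.89 to 43.2, 2.17 to 6.49 and 3.35 to 4.76 CPM in WT, Veh, anti-miR-21 and ACEi mice. Across the 20 mice, log2 CPM of Aldh1a3 correlated with these sums at r = 0.88 and r = 0.89, and after subtracting group means at r = 0.85 and r = 0.90, as a description. Adipocyte markers (6 of 6 found) were high in Veh mice A1, A4 and A9 (419, 373 and 363 CPM) and in anti-miR-21 mouse A12 (231 CPM), and ranged over 1.68 to 18.7 CPM in WT, 0.705 to 419 CPM in Veh, 4.73 to 231 CPM in anti-miR-21 and 0.558 to 8.52 CPM in ACEi mice. Their correlation with Aldh1a3 was lower, at r = 0.43. Crabp2 followed Aldh1a3 at r = 0.80, or r = 0.75 after subtracting group means, and followed the urothelium sum at r = 0.88, or r = 0.85.

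**Figure D4:**
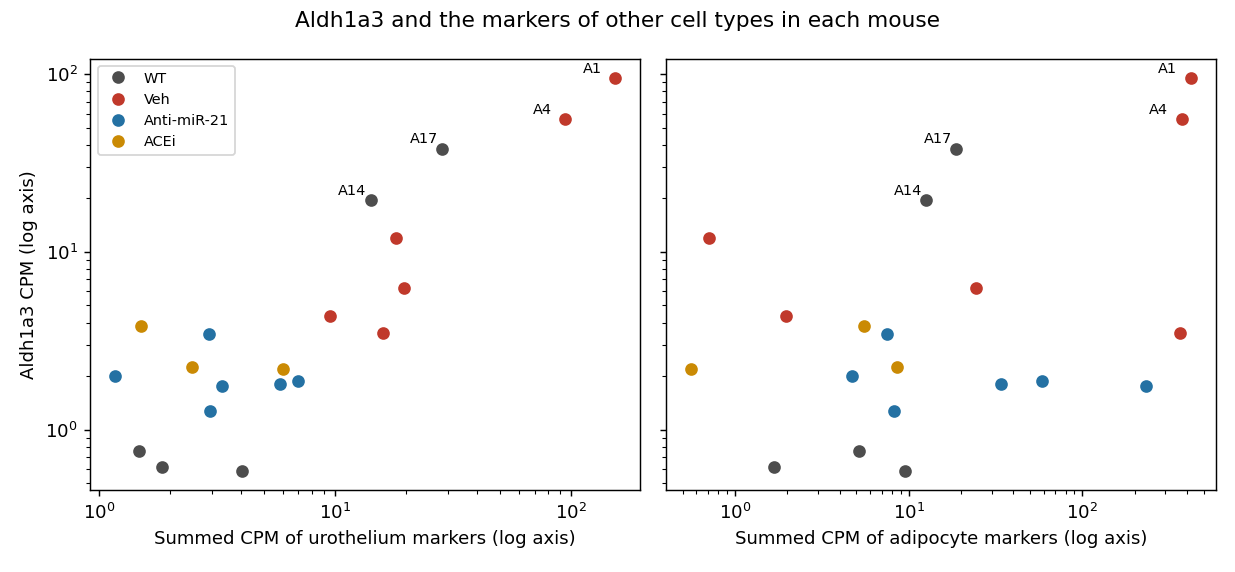
Aldh1a3 CPM (y axis, log scale) against the summed CPM of urothelium markers and of adipocyte markers (x axes, log scale) in the 20 mice, coloured by group. Veh mice A1 and A4 (95.0 and 55.7 CPM) and WT mice A14 and A17 (19.5 and 38.1 CPM) stand above the other mice.

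The genes most like Aldh1a3 were listed from 13161 genes by Pearson correlation of log2 CPM over the 20 mice, as a description. They were Npy1r (r = 0.923), Tbx3 (r = 0.919), Fcgbp (r = 0.901), Acer2 (r = 0.897) and Muc20 (r = 0.889). Muc20, a membrane mucin, reached 56.1 CPM in WT and 45.9 CPM in Veh but at most 13.8 CPM in anti-miR-21 and 13.9 CPM in ACEi mice. After subtracting group means, the first genes were Akr1b3 (r = 0.930), Plet1 (r = 0.925), Sprr1a (r = 0.901), Col4a6 (r = 0.900) and Bok (r = 0.899). Sprr1a, a cornified-envelope protein of stratified epithelia, ranged from 0.164 to 15.6 CPM in WT and from 10.6 to 98.7 CPM in Veh mice. Akr1b3, the aldose reductase, ranged from 109 to 474 CPM in WT and from 80.7 to 273 CPM in Veh, with a median of 106 CPM in anti-miR-21 mice.

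Aldh1a7, the rodent paralogue of Aldh1a1 shown above, differed from it in which groups stood high. WT mice measured 11.3, 12.8, 7.52, 8.50 and 18.5 CPM and Veh mice 13.96 to 16.99 CPM with a median of 15.0 CPM. Anti-miR-21 mice were higher, at 17.4 to 25.1 CPM, and ACEi mice measured 14.4, 15.5 and 18.6 CPM. With TMM scaling the WT range held the whole Veh range, and every anti-miR-21 mouse exceeded every Veh mouse. In Veh vs. WT the log2 fold change of 0.37 ± 0.17 missed the threshold (edgeR adjusted p = 0.0532), and it was called at 0.59 without WT mouse A18 and at 0.96 with library totals. Aldh1a7 was 1.84-fold higher in anti-miR-21 than in WT mice (0.88 ± 0.17; edgeR adjusted p = 3.55e-04), whereas ACEi vs. WT gave 0.47 ± 0.20 (edgeR adjusted p = 0.0610), called at 0.78 with library totals. In anti-miR-21 vs. Veh the value was 0.51 ± 0.16, which became 0.16 with library totals and 0.13 with log2(FPKM + 1) and was then not called. In ACEi vs. Veh it was 0.09 ± 0.19, which turned to −0.18 with library totals.

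Dhrs3 encodes the reductase that returns retinaldehyde to retinol and so limits retinoic acid formation (chromosome 4, 144892827 to 144928209, plus strand). Per length it was the most abundant of the 9, at a mean FPKM of 100.2 in WT, 132 in Veh, 133 in anti-miR-21 and 92.0 in ACEi mice; the authors flag its FPKM entry, and those of Rarb and Stra6, as confounded. WT mice measured 217.8, 169, 169, 226.8 and 202.8 CPM and Veh mice 154 to 198 CPM with a median of 162 CPM. Anti-miR-21 mice measured 191 to 240 CPM, and the ACEi mice 138, 151 and 150 CPM. In CPM the ACEi mice were below all mice of the other 3 groups, and anti-miR-21 mice overlapped WT. In FPKM, WT mice A6 and A14 (86.6 and 86.9) lay below ACEi mice A11, A13 and A23 (88.5, 90.5 and 97.0).

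Dhrs3 was the 1 retinoid gene that differed between the treatments, 1.504-fold higher in anti-miR-21 than in ACEi mice (log2 fold change 0.59 ± 0.11; edgeR adjusted p = 0.0154). Across the alternatives the value ran from 0.52 to 0.63, and the call was lost without ACEi mouse A11, A13 or A23 (0.113, 0.0730 and 0.101 as edgeR adjusted p). Dhrs3 was lower in ACEi vs. WT (−0.43 ± 0.11; edgeR adjusted p = 0.00377), but with library totals the value was −0.12 and the call was lost, as it was in FPKM. The Veh vs. WT difference of −0.21 ± 0.09 (edgeR adjusted p = 0.0459) turned to 0.38 with library totals, and in FPKM Dhrs3 was higher in Veh. In anti-miR-21 vs. Veh its log2 fold change was 0.37 ± 0.09 with TMM and 0.02 with library totals. ACEi vs. Veh did not reach the threshold with TMM (−0.22 ± 0.11; edgeR adjusted p = 0.113) and was called in 5 of 23 alternatives, at −0.30 with upper-quartile scaling, −0.49 with library totals and −0.51 with log2(FPKM + 1).

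Rarb encodes a retinoic acid receptor that is itself a classic retinoic acid target through the promoter repeat printed above. It lies on chromosome 14 (16430839 to 16819156, minus strand) and overlaps exons of Top2b and Gm48162 on the opposite strand, whose reads cannot be told apart where counting ignored strand. WT mice measured 10.2, 12.5, 10.3, 9.85 and 7.89 CPM and Veh mice A1, A4, A9, A16, A19 and A20 measured 16.8, 24.2, 13.9, 15.9, 11.9 and 20.03 CPM. The groups overlapped only through Veh mouse A19 and WT mouse A6. Anti-miR-21 mice lay in a narrow band of 8.72 to 10.5 CPM, below every Veh mouse and within the WT range, and ACEi mice measured 9.15, 12.4 and 13.2 CPM.

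Rarb rose 1.68-fold in Veh vs. WT (log2 fold change 0.75 ± 0.15; edgeR adjusted p = 1.74e-04). Against Veh it was −0.81 ± 0.14 in anti-miR-21 mice and −0.56 ± 0.18 in ACEi mice (edgeR adjusted p = 0.0171 for ACEi). The ACEi call was lost without ACEi mouse A11 (−0.41; edgeR adjusted p = 0.124) and held in 18 of 23 alternatives. Compared to WT, neither treated group reached the threshold, with −0.06 ± 0.15 under anti-miR-21 (edgeR adjusted p = 0.775), which turned to 0.19 with library totals, and 0.19 ± 0.18 under ACEi (edgeR adjusted p = 0.414), which was called at 0.50 with library totals and at 0.40 with log2(FPKM + 1). Placed between the Veh mean (0%) and the WT mean (100%) in log2 CPM, anti-miR-21 mice stood at 107% ± 14.4 (SD, n = 6) and ACEi mice at 74.2% ± 39.0 (SD, n = 3). For Aldh1a2 the same measure was 27.1% ± 11.5 and 13.2% ± 3.53, and for Aldh1a1 44.1% ± 20.4 and 50.7% ± 12.2.

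**Figure D5:**
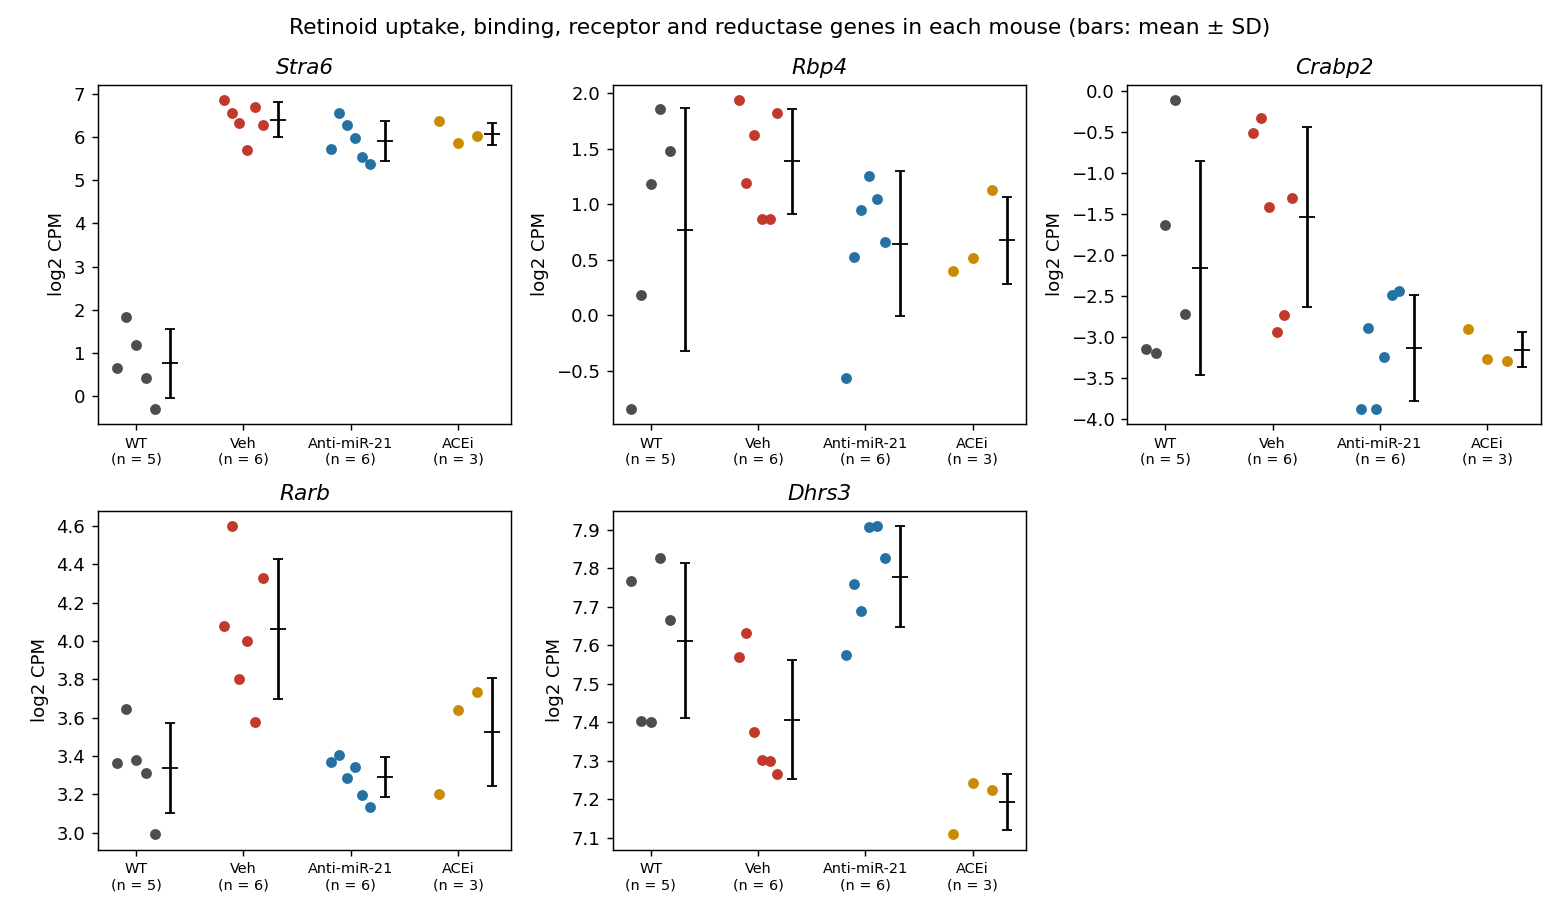
Log2 CPM of Stra6, Rbp4, Crabp2, Rarb and Dhrs3 (y axis) in each mouse (points), grouped as WT, Veh, anti-miR-21 and ACEi, with the mean and SD beside each group. Stra6 sits above 41.1 CPM in all Col4a3-/- mice and at or below 3.53 CPM in WT mice, and Dhrs3 is lowest in the 3 ACEi mice.

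The wider pathway was followed in a list of 51 further retinoid genes, of which 50 were found and 42 tested. In Veh vs. WT, 16 of the 42 rose and 14 fell, against 39.0% of all genes higher and 34.0% lower, and their median log2 fold change was 0.00. Of 15 enzymes of retinol and retinal oxidation and reduction 4 rose and 9 fell, and of 8 retinoic acid response genes tested 7 rose and 0 fell. Of 8 binding and uptake genes 3 rose and 2 fell, of 4 ester and carotenoid genes 0 rose and 2 fell, of 5 receptors 1 rose and 1 fell, and of 2 degradation genes 1 rose. The genes that rose included Dhrs9, Adh4 and Crabp1, which passed the filter through Col4a3-/- mice, where they were high. Their calls are a description and no test.

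The genes that fell included those of retinol reabsorption and oxidation. Lrp2 and Cubn, which encode megalin and cubilin, changed by −2.40 ± 0.20 and −1.95 ± 0.15 in Veh vs. WT (edgeR adjusted p = 1.05e-09 and 5.09e-10). The retinol dehydrogenase genes Rdh16 (−2.03), Rdh7 (−2.17) and Rdh5 (−1.62), the reductase gene Dhrs4 (−1.87), the alcohol dehydrogenase genes Adh1 (−1.53) and Adh5 (−1.24), the carotenoid oxygenase gene Bco2 (−2.37) and Lrat (−1.45), which esterifies retinol, also fell. Proximal tubule markers (5 of 5 found, none at 0 in a whole group) moved with these genes, summing to 11873 to 15143 CPM in WT, 1100.2 to 3403 CPM in Veh, 6255 to 10789.6 CPM in anti-miR-21 and 6441 to 8548 CPM in ACEi mice, and their part in the result was not tested. Thick ascending limb markers summed to medians of 6892 CPM in WT, 2727 in Veh, 5661 in anti-miR-21 and 4757 in ACEi mice. Of their 4 markers, 3 were lower and 1 higher in Veh vs. WT. Of 5 collecting duct markers, 3 were lower and 0 higher. The part of these 2 lists was not tested either. Rdh7 was low, at 0.451 to 1.51 CPM in WT and 0.0309 to 0.677 CPM in Veh, and was not called on the smaller flow cell alone (−1.92). In ACEi vs. Veh, 13 of the 42 were higher and 3 lower, 16 in all, against 40.1% of all genes called. Lrp2 rose by 1.52, Cubn by 1.15, Rdh16 by 1.29, Dhrs4 by 1.18, Bco2 by 1.41 and Lrat by 0.97 on the log2 scale.

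Among the genes that rose in Veh vs. WT were the receptor gene Rarg (1.40 ± 0.09; edgeR adjusted p = 6.56e-11), the dehydrogenase gene Rdh12 (1.59) and the response genes Rarres1 (1.89), Ret (1.57), a growth factor receptor of the ureteric bud, and the homeobox gene Meis1 (1.49). Rarres1 and Ret were not called on the smaller flow cell alone, at 1.56 and 1.36. Dhrs9, a retinol dehydrogenase gene, measured 0 to 0.0445 CPM in WT and 0.432 to 1.02 CPM in Veh. Adh4 measured 0 to 0.164 CPM and 0.138 to 0.679 CPM, and Crabp1 0 to 0.0845 CPM and 0.137 to 0.365 CPM, all near the limit of detection in WT. The rises of Dhrs9, Adh4 and Crabp1 are given as a description. Adh4 and Crabp1 were not called on the smaller flow cell alone, at 1.61 and 2.55. Rxra, which encodes the receptor that pairs with RAR on DNA, fell (−0.99 ± 0.08; edgeR adjusted p = 8.01e-10). Rara (0.07), Rxrb (−0.09) and Rxrg (−0.09) did not pass the test with TMM. With library totals these became 0.66, 0.50 and 0.48, and Rara and Rxrb were called.

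Cyp26a1, the retinoic acid hydroxylase that is induced by its own substrate, ranged from 0.574 to 1.09 CPM in WT and from 1.11 to 1.73 CPM in Veh mice. It rose in Veh vs. WT (0.93 ± 0.25; edgeR adjusted p = 0.00276), with no overlap between the groups, and was 0.35 and not called on the smaller flow cell alone. Under anti-miR-21 it ranged from 0.380 to 0.976 CPM and in ACEi mice from 0.680 to 1.40 CPM. Its log2 fold change was −1.28 ± 0.24 in anti-miR-21 vs. Veh and −0.56 ± 0.29 in ACEi vs. Veh, where it did not pass the test (edgeR adjusted p = 0.134). Cyp26b1 did not pass in Veh vs. WT (−0.02 ± 0.57, or 0.56 with library totals).

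In anti-miR-21 vs. Veh, 14 of the 42 were higher and 10 lower, 24 in all, against 59.2% of all genes called. Compared to WT, 12 genes of the list rose and 7 fell in the anti-miR-21 group, 19 in all (all genes, 43.7%), and 12 rose and 11 fell in the ACEi group, 23 in all (all genes, 47.7%). Between anti-miR-21 and ACEi mice, 0 of the 42 were called by edgeR, with 9 at an unadjusted p below 0.05, and DESeq2 called 1, the fatty acid- and retinoid-binding protein gene Fabp5.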

How the data were processed

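Whole kidneys of 20 mice were profiled by RNA-seq with 100 bp paired-end reads. Per the study's methods, reads were mapped to GRCm38 with OSA4 in OmicSoft Studio and quantified on Ensembl gene models; whether counting used strand is not given in the sources used here. The authors deposited estimated counts per gene, of which 29.1% of positive values are not whole, and FPKM values scaled to the library total. Of its FPKM columns, 3 belong to no sample given here and were not used. The depth was 28474272 to 29479600 counts per library, and a floor of 3 counts per library was chosen.

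Counts were rounded, filtered and fitted across all 4 groups with edgeR 4.0.16 (quasi-likelihood, TMM, R 4.3.3), 1 coefficient per group. The filter asked for about 10 counts at the median depth in at least as many mice as the smallest group held. It also asked for 15 counts in total. Adjusted p-values are Benjamini-Hochberg over 17622 genes, with a threshold of 0.05. CPM log values used a prior count of 2. Since the deposited unit allowed it, the count test replaced the authors' test on log2(FPKM + 1), which was run as an alternative with limma 3.58.1, and DESeq2 1.42.0 was another. The edgeR fit was also run on simulated data in which few genes were changed. That setting differs from these data, where 73.0% of genes were called in Veh vs. WT, so it does not test the scaling.

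The members and lists were chosen with earlier results of these data known. Named genes were the 9 members, the retinoid receptors and Cyp26 genes, wider-list genes called with an absolute log2 fold change of at least 1 in Veh vs. WT or called in anti-miR-21 vs. ACEi, and the 5 genes most like Aldh1a3 by each correlation, among genes whose mean log2 CPM reached 1. Col4a3 was the check of the labels. The result of 1 gene of the wider list is not reported here. Muc20, Sprr1a, Akr1b3 and Fabp5 were picked out for their values or calls after these were seen. The comparison from which Aldh1a3 was selected was given no p-value, and its calls of the 9 genes are a description. Aldh1a3 itself was given a p-value in ACEi vs. WT alone. Alternatives changed the scaling, filter, tool, samples and flow cell (2 flow cells, with 13 and 7 mice). Leaving out the mice with adipocyte markers over 100 CPM or urothelium markers over 25 CPM, and fitting the smaller flow cell alone, were added after seeing the data. Promoter, microRNA and gene positions came from RefSeq (GRCm38.p6) and the GENCODE annotation of GRCm38; promoter entries were found for 7 of 9 members.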

Additional observations from a re-analysis of the deposited data

Results flagged for a closer look

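Of 27 groups of a gene in 4 to 6 mice that were screened, 2 held a mouse set apart from the others of its group, and chance flags about 1 in 20 groups. Aldh1a3 in anti-miR-21 mouse A2 measured 3.47 CPM, against 2.002 CPM in the next mouse of the group. Crabp2 in WT mouse A17 measured 0.858 CPM, against 0.253 CPM in the next WT mouse. The effect of the treatments differed from each other for Dhrs3, with a log2 difference of 0.589 between anti-miR-21 and ACEi mice.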

How the results depend on the processing

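Of 540 values of the 9 genes with 1 mouse left out, 480 kept their direction and side of the threshold, as did 606 of 734 under the other alternatives and 527 of 561 for the wider list; of 277 counts, 252 stayed within 1.5 times. Where a value below differs, the cause was not tested. The genes of the 9 called in ACEi vs. Veh numbered 3 without a filter, 2 with flow cell as a term and 1 without either the adipocyte-rich or the urothelium-rich mice, and 1 on flow cell B alone, where 7 of the wider list were called (the last 3 settings were chosen after seeing the data). They ranged from 1 to 4 with 1 mouse left out (1 without ACEi A11, 2 without Veh A1 or A4 or ACEi A13 or A23, 3 without Veh A9 or A20). In anti-miR-21 vs. Veh, where the calls are a description, they were 3 without the adipocyte-rich mice and 7 to 8 with 1 mouse left out. In Veh vs. WT they were 8 with log2(FPKM + 0.1) and 4 to 6 with 1 left out, and in anti-miR-21 vs. ACEi 0 with log2(FPKM + 0.1) and with log2(FPKM + 1) unfiltered, and 0 to 1 with 1 left out. Against WT, 1 mouse left out gave 4 to 6 under anti-miR-21 and 4 to 5 under ACEi. For the wider list it gave 29 to 31 in Veh vs. WT, 23 to 25 in anti-miR-21 vs. Veh, 14 to 18 in ACEi vs. Veh, 18 to 23 and 20 to 23 for anti-miR-21 and ACEi vs. WT, and 0 between treatments, where DESeq2 called 1 (Fabp5) and a fit of the 2 groups alone 1 (Rdh16). Of the 5 genes most like Aldh1a3, 3 were shared with library totals and 3 to 5 with 1 Veh mouse left out (3 without A9 or A19).

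Directions turned as follows, in log2 fold change. In Veh vs. WT, upper-quartile scaling gave Cyp26b1 0.0899, Rxrb 0.0261 and Rxrg 0.0237, and library totals gave Dhrs3 0.38, Cyp26b1 0.56, Rxrb 0.50 and Rxrg 0.48. Cyp26b1 was 0.0019 unfiltered, 0.047 with at least 10 counts in every mouse, 0.0014 in the 2 groups alone, 0.058 without adipocyte-rich and 0.055 without urothelium-rich mice. On flow cell A alone Rxrb was 0.029, Rxrg 0.016 and, in anti-miR-21 vs. WT, Rbp4 0.33. On flow cell B alone Aldh1a3 was −1.09, Crabp2 −1.21, Rbp4 −0.26, Cyp26b1 0.24 and Rara −0.16 in Veh vs. WT, and Aldh1a7 was −0.00078 and Stra6 0.12 in ACEi vs. Veh. Library totals gave Aldh1a7 −0.18 in ACEi vs. Veh, Rbp4 −0.051 in anti-miR-21 vs. ACEi and Rarb 0.19 in anti-miR-21 vs. WT. With log2(FPKM + 1), filtered or not, Dhrs3 was 0.39 in Veh vs. WT, Aldh1a7 −0.17 in ACEi vs. Veh, Rbp4 −0.043 in anti-miR-21 vs. ACEi, 0.0032 in anti-miR-21 vs. WT and 0.046 in ACEi vs. WT, and Rarb 0.15 in anti-miR-21 vs. WT. With log2(FPKM + 0.1) the same values were 0.40, −0.19, −0.094, 0.085, 0.18 and 0.19, and Crabp2 was −0.0076 in anti-miR-21 vs. ACEi. Without adipocyte-rich mice Aldh1a3 was −0.67 and Rara −0.0037 in Veh vs. WT and Rbp4 −0.11 in anti-miR-21 vs. ACEi, and without urothelium-rich mice Rbp4 was 0.0077 in anti-miR-21 vs. WT. With 1 mouse left out, the ranges that crossed 0 were −0.26 to 0.27 for Cyp26b1, −0.015 to 0.13 for Rara and −0.60 to 0.28 for Rxrg in Veh vs. WT, −0.14 to 0.023 for Rarb in anti-miR-21 vs. WT, −0.11 to 0.30 for Rbp4, −0.094 to 0.57 for Crabp2 and −0.28 to 0.031 for Stra6 in anti-miR-21 vs. ACEi, and −0.014 to 0.18 for Aldh1a7 in ACEi vs. Veh.

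No paired analysis was possible because replicate numbers were given in accession order and pair no mice across groups. ACEi comparisons were not run on flow cell A alone, which held 1 ACEi mouse, nor anti-miR-21 comparisons on flow cell B alone, which held 1 anti-miR-21 mouse. The 3 ACEi mice and the few counts of Crabp2 also limit these comparisons.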
